A study of Mus musculus with 12 samples.

Results

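The genes described here encode the transport machinery and the gate of the cilium. The list names 48 genes by role, with no threshold on measured values, though it was drawn up with earlier results of these data known. On the arrays 46 of them could be followed, each through 1 probe, out of 19902 genes named by the array's annotation. Arl6 and Arl13b were not analysed here. The 46 genes fall into 7 groups by role: 11 genes of intraflagellar transport complex B (IFT-B), 5 of complex A (IFT-A), 4 motor subunits, 8 genes of the BBSome and its assembly factors, 4 of the ARL3 cargo cycle, 10 of the transition zone and 4 of the photoreceptor axoneme. The last group, called axoneme genes below, also takes in genes of ciliary trafficking.

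The light-sensitive outer segment of a photoreceptor is a modified cilium, joined to the cell body by a thin connecting cilium. Its proteins are made in the cell body and carried out by IFT trains, which kinesin-2 moves outward and dynein-2 moves back, while the BBSome acts as an adaptor for membrane proteins and ARL3 releases lipid-modified proteins from their carriers. The transition zone at the cilium's base controls what enters and leaves, and inherited defects in many of these genes cause retinal degeneration.

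RNA levels were measured in fluorescence-sorted cones of C3H/HeNCrl mice, all of which carry the Pde6brd1 mutation; in such mice rods die early and cones lose their outer segments and then degenerate. All animals had received an adeno-associated virus under the retina at postnatal day 21 to 28, and in every group the promoter of mouse cone arrestin-3 (mCAR) drove the transgene, so that a cell was collected only if this promoter was active in it. The control groups carried mCAR-EGFP and were taken at 110 days (4 arrays) and 220 days (4 arrays), each array from 500 sorted cells. The remaining group carried mCAR-eNpHR-EYFP, a chloride pump driven by light and tagged with a yellow fluorescent protein, which served as the light sensor; this group was taken at 165 days (4 arrays), each from 300 sorted cells. The construct, the age of 165 days and the number of sorted cells therefore cannot be told apart. Nor can any difference in how the EGFP and eNpHR-EYFP arrays were processed be told apart from the construct. The main comparison set the eNpHR-EYFP arrays against the mean of both EGFP ages, whose midpoint is also 165 days. The arrays are described as biological replicates, but nothing says which animals each came from, so the p-values measure only the spread between these arrays.

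The median log2 level of all probes was 2.72 to 2.83 on every array, whereas 95% of the probes lay below 6.84 to 7.08 with EGFP and below 7.44 to 7.54 with eNpHR-EYFP, so bright probes tended to be brighter with eNpHR-EYFP. For this reason the comparison of constructs was also computed after quantile normalization, which makes the distributions of all arrays equal. The mean log2 level of 10 cone markers was 4.72 and 5.06 on EGFP replicates 1 and 4 at 110 days and 5.74 on replicate 1 at 220 days. The other 5 EGFP arrays stood at 6.57 to 7.59 and those of eNpHR-EYFP at 6.88 to 8.54, and 3 of the 10 markers passed the test, all higher with eNpHR-EYFP. The comparison of constructs was therefore also computed with this mean as a covariate and without those 3 EGFP arrays. In sorted pools such as these, fewer cones and less RNA per cone cannot be told apart. Markers of other cells were present too. Müller glia markers averaged 5.45 or more on every EGFP array and 6.35 to 7.68 with eNpHR-EYFP. Bipolar cell markers averaged 4.59 or more on every array. Both lay well above the median of all probes, 2.76. Of the Müller glia markers, Clu and Vim were higher with and without the cone marker covariate. Glul, Rlbp1, Slc1a3, Apoe and Dkk3 were called higher with that covariate but not in the main comparison. Aqp4 passed in neither of these fits. The mean of 7 ganglion cell markers was 2.91 to 3.14 with EGFP and 3.36 to 3.64 with eNpHR-EYFP, with 4 higher in the test, and that of 8 microglia markers was 2.57 to 2.78 and 2.85 to 2.97, with 4 higher and 1 lower. Passing the test, in the order higher and lower, were 2 and 0 of 8 Müller glia markers, 1 and 1 of 8 rod markers, 3 and 0 of 8 amacrine cell markers, 0 and 1 of 7 bipolar cell markers, 1 and 1 of 5 horizontal cell markers, 2 and 0 of 7 markers of the retinal pigment epithelium and 0 of 4 endothelial markers. Their part in the results on ciliary genes was not tested.

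Ciliary genes changed in both directions between the constructs. At an adjusted p under 0.05 (limma with Benjamini-Hochberg adjustment over all 34615 probes tested), 18 of the 46 genes (39.1%) were higher in eNpHR-EYFP cones and 7 (15.2%) were lower, while 21 did not pass. Together these are 54.3%. Among all genes 23.0% were higher and 10.1% lower by the same rule, 33.1% together. The median log2 difference, eNpHR-EYFP minus EGFP, was 0.15 over the 46 genes and 0.07 over all genes, and single genes ran from -1.13 for Ahi1 to 2.14 for Ift22. Of the genes whose mean level lay above the median of all probes, 47.1% of the 34 ciliary genes and 32.7% of all genes were higher, and 17.6% and 11.9% were lower. After quantile normalization 11 ciliary genes (23.9%) were higher and 9 (19.6%) lower, against 16.1% and 12.4% of all genes, and 17 of the 25 calls were the same. With the cone marker mean as covariate 11 (23.9%) were higher and 5 (10.9%) lower, against 17.3% and 6.13% of all genes (23.4% together), and 15 calls were the same. Without the 3 EGFP arrays low in cone markers 16 were higher and 4 lower, against 18.6% and 7.31% of all genes (25.9% together), and 18 calls were the same. All 4 eNpHR-EYFP arrays lay on the same side of all 8 EGFP arrays for 13 of the 46 genes (28.3%; 20.3% of all genes), 9 above and 4 below.

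**Figure D1:**
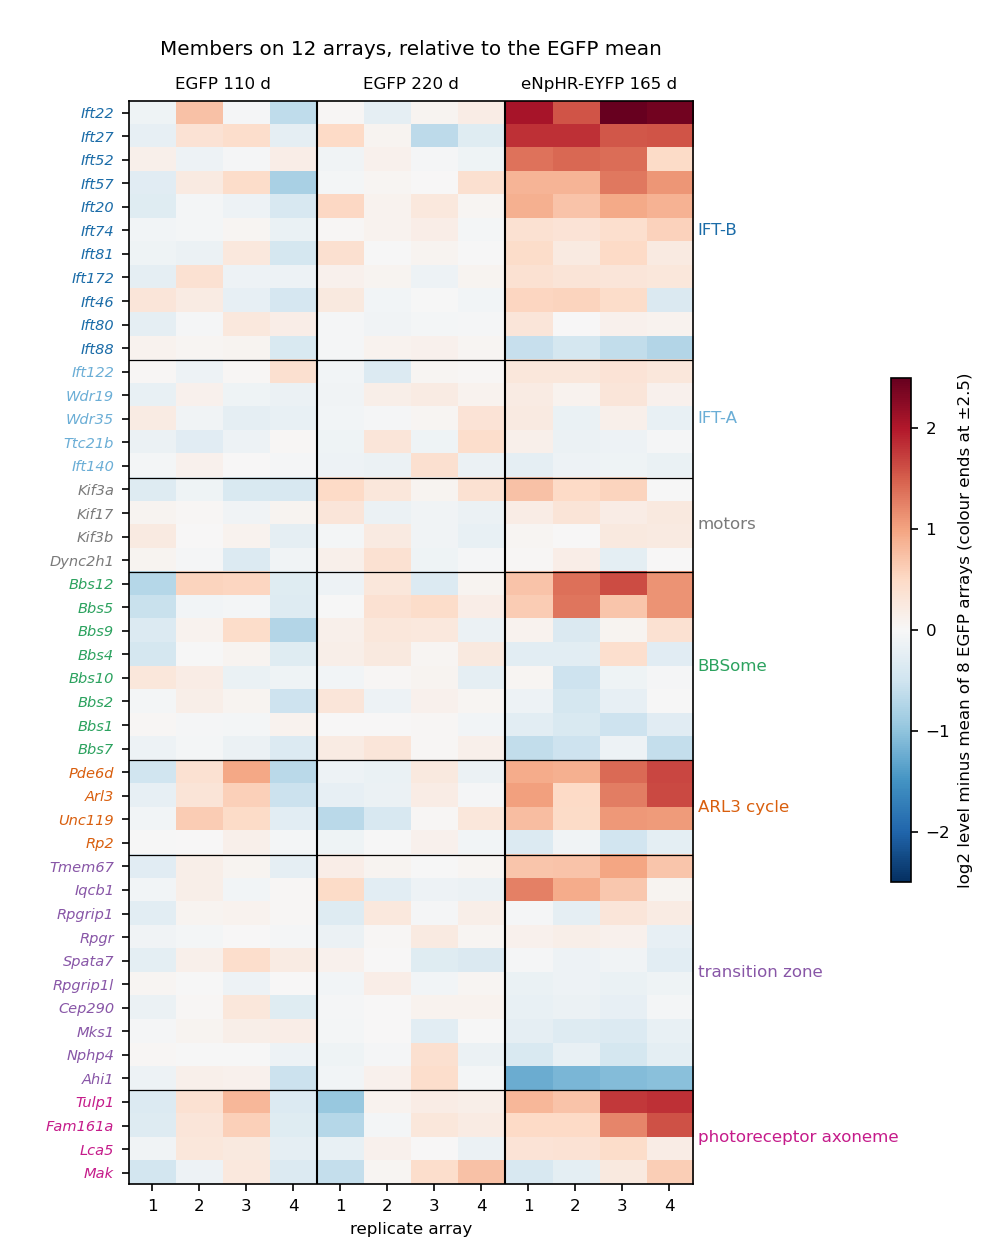
Log2 level of each of the 46 ciliary genes (rows, grouped by role) on each of the 12 arrays (columns), as the difference from the gene's mean over the 8 EGFP arrays; red is above and blue below that mean. The darkest red cells belong to Ift22 and Ift27 on the eNpHR-EYFP arrays and the darkest blue to Ahi1, and most ARL3 cycle and axoneme genes are also red on EGFP replicates 2 and 3 at 110 days.

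IFT-B held the largest rises. This complex forms the backbone of the trains that carry cargo toward the ciliary tip. Of its 11 measured genes, 7 were higher in eNpHR-EYFP cones (Ift20, Ift22, Ift27, Ift52, Ift57, Ift74 and Ift172), 1 was lower (Ift88) and 3 did not pass, with a median log2 difference of 0.43. Quantile normalization left 6 higher and 1 lower (median 0.31), and so did the cone covariate (median 0.47).

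Ift22, a small GTPase-like subunit, was at log2 levels of 4.21, 5.06, 4.29 and 3.68 in EGFP cones at 110 days, 4.34, 4.09, 4.38 and 4.5 at 220 days, and 6.38, 5.89, 6.80 and 6.73 in eNpHR-EYFP cones. The lowest eNpHR-EYFP array thus lay above the highest EGFP array. The log2 difference was 2.14 ± 0.23 (SE; adjusted p = 7.17e-05), a 4.4-fold higher level, and 1.77 after quantile normalization. Ift27, a Rab-like GTPase that takes part in BBSome exit from the cilium, was at 4.49, 5.06, 5.14 and 4.47 at 110 days, 5.20, 4.77, 4.04 and 4.40 at 220 days, and 6.53, 6.53, 6.24 and 6.26 with eNpHR-EYFP. These groups did not overlap either, and the log2 difference was 1.70 ± 0.21 (SE; adjusted p = 0.000142), or 3.24-fold.

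Ift52, a core subunit that holds the complex together, stood at 3.34, 3.09, 3.19 and 3.38 at 110 days, 3.12, 3.32, 3.19 and 3.10 at 220 days, and 4.57, 4.66, 4.62 and 3.70 with eNpHR-EYFP. Replicate 4 with eNpHR-EYFP was nearer to the EGFP arrays than to the other eNpHR-EYFP arrays but still above them, and the log2 difference was 1.17 ± 0.16 (SE; adjusted p = 0.000329). Ift20, the subunit that is also found at the Golgi, was at 7.94, 8.20, 8.12 and 7.84, then 8.76, 8.33, 8.51 and 8.29, then 9.13, 8.96, 9.19 and 9.12 in the same order of groups. All its eNpHR-EYFP arrays lay above the EGFP arrays, by a log2 difference of 0.85 ± 0.11 (SE; adjusted p = 0.000162) that shrank to 0.31 (adjusted p = 0.0201) after quantile normalization.

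Of the other IFT-B genes, Ift57 rose by 1.03 ± 0.21 (SE; adjusted p = 0.0032) and Ift74, part of the tubulin-binding module, by 0.43 ± 0.08 (adjusted p = 0.00171) on the log2 scale, both without overlap between the constructs. Ift74 was read on a dim probe, at 1.96 to 2.29 with EGFP and 2.46 to 2.70 with eNpHR-EYFP. These levels all lay below the median of all probes, 2.76. Ift88, a core subunit needed for cilium formation, went the other way. It was at 3.47, 3.43, 3.45 and 3.0 at 110 days, 3.36, 3.47, 3.5 and 3.43 at 220 days, and 2.81, 2.94, 2.77 and 2.66 with eNpHR-EYFP. Every eNpHR-EYFP array lay below every EGFP array, and the level fell by 0.60 on the log2 scale (SE 0.10, adjusted p = 0.00104). The call of Ift172 (0.32 ± 0.11, adjusted p = 0.0478) was lost in 11 of the 12 fits that left out 1 array, all but the one without EGFP replicate 2 at 110 days, with adjusted p from 0.0596 to 0.114, and after quantile normalization (0.0695). Log2 differences were 0.35 for Ift81 (adjusted p = 0.0687), 0.30 for Ift46 (0.265) and 0.13 for Ift80 (0.363). Ift81 passed without replicate 3 at 110 days (0.41, adjusted p = 0.0212) or replicate 1 at 220 days (0.40, 0.0382), and Ift46 without eNpHR-EYFP replicate 4 (0.52, 0.0246).

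**Figure D2:**
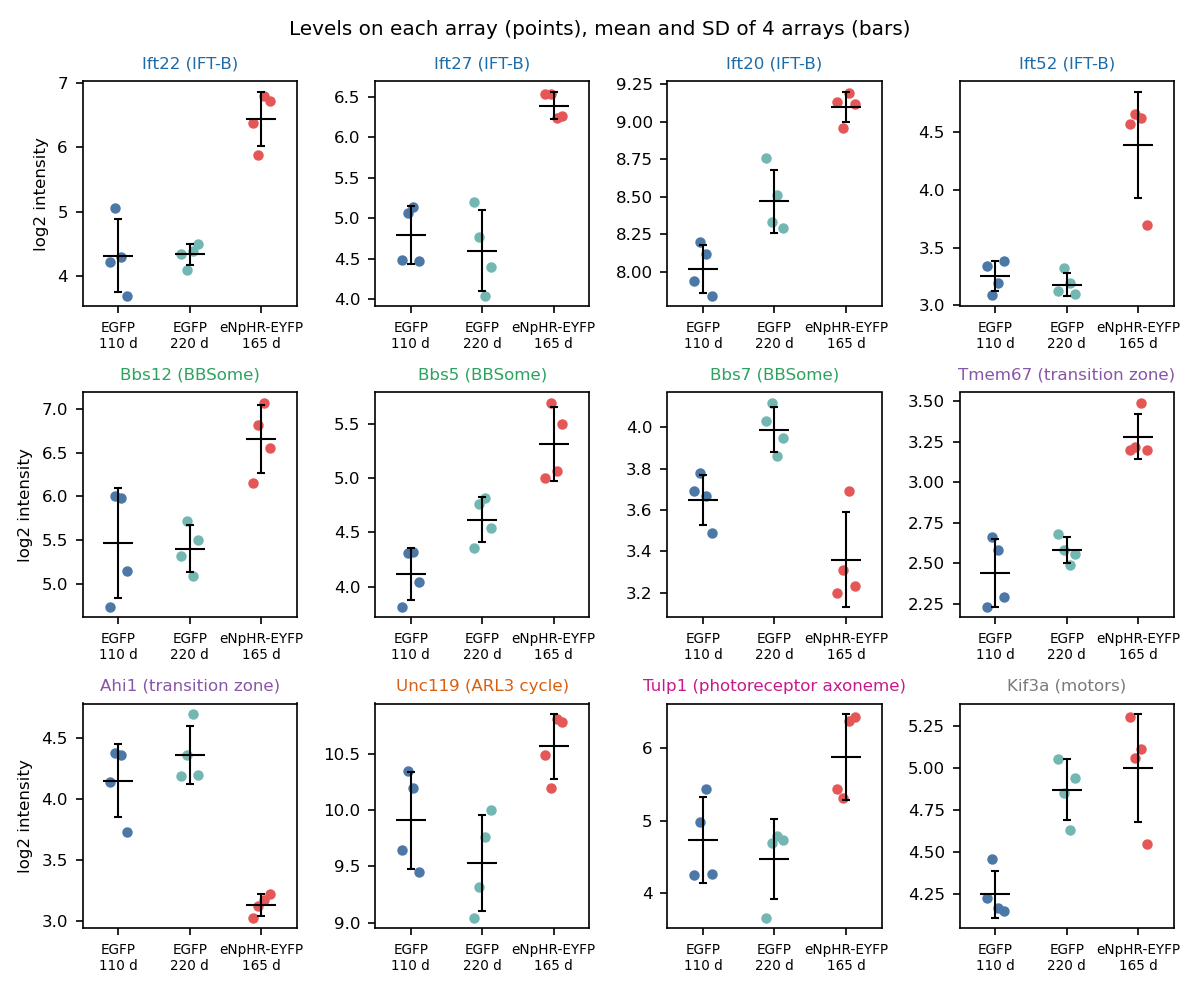
Log2 level of 12 named genes on each array (points) with the mean and SD of the 4 arrays of each group (bars); each panel has its own vertical scale. Ift22, Ift27, Ift20, Ift52, Bbs12, Bbs5 and Tmem67 lie higher in every eNpHR-EYFP array than in any EGFP array, Ahi1 lies lower, and the other 4 genes overlap.

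None of the 5 IFT-A genes, which encode the complex used for return transport and for import of some membrane proteins, passed the test, and their median log2 difference was 0.00. Ift122, with the smallest p of the group, was at 2.29, 2.14, 2.29 and 2.66 at 110 days, 2.20, 1.93, 2.32 and 2.29 at 220 days, and 2.54, 2.54, 2.61 and 2.54 with eNpHR-EYFP. Only replicate 4 at 110 days reached the eNpHR-EYFP arrays, and the log2 difference of 0.29 ± 0.11 (SE) had an adjusted p of 0.0615, which was 0.0493 after quantile normalization and 0.0167 without that replicate. Ttc21b, another IFT-A subunit, was at 3.35, 3.20, 3.36 and 3.52, then 3.39, 3.79, 3.39 and 3.93, then 3.61, 3.35, 3.36 and 3.47, so the groups overlapped throughout (-0.04 ± 0.12, SE; adjusted p = 0.822). Log2 differences of Ift140, Wdr19 and Wdr35 were -0.16, 0.18 and 0.00. Whether the 2 IFT complexes differ from each other was not tested.

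Among the motor genes, Kif3a alone passed. It encodes a subunit of heterotrimeric kinesin-2, the motor of outward transport. Its log2 levels were 4.23, 4.46, 4.17 and 4.15 at 110 days, 5.05, 4.85, 4.63 and 4.94 at 220 days, and 5.30, 5.06, 5.11 and 4.55 with eNpHR-EYFP. The eNpHR-EYFP arrays thus lay above the younger EGFP arrays but overlapped the older ones. The log2 difference was 0.44 ± 0.13 (SE; adjusted p = 0.0284), made up of 0.75 against 110 days (adjusted p = 0.00482) and 0.14 against 220 days (0.589). It was 0.16 after quantile normalization (adjusted p = 0.324). The call was also lost without eNpHR-EYFP replicate 1, 2 or 3 (adjusted p 0.0988, 0.0718 and 0.0824). It was lost too with the cone covariate (0.52, adjusted p = 0.0631) and without the 3 EGFP arrays low in cone markers (0.44, 0.0862). A fit on all arrays that pooled both EGFP ages did not call it either (0.44, 0.116). Its partner Kif3b differed by 0.13, the homodimeric kinesin-2 Kif17 by 0.23 and Dync2h1, the heavy chain of dynein-2, by -0.02 on the log2 scale; Kif17 passed without EGFP replicate 1 at 220 days (0.28, adjusted p = 0.0137).

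The BBSome group split in the main comparison. Of 8 genes, Bbs5 and Bbs12 were higher, Bbs1 and Bbs7 lower, and 4 did not pass, with a median log2 difference of -0.12. After quantile normalization 2 were higher and 4 lower (median -0.29), the added ones being Bbs2 (-0.43, adjusted p = 0.0277) and Bbs4 (-0.40, 0.0458). With the cone covariate 1 was higher and 2 were lower (median -0.31). With both together Bbs1, Bbs2, Bbs4, Bbs7 and Bbs9 (-0.50, adjusted p = 0.0493) were lower. Bbs5 and Bbs12 then did not pass (0.0733 and 0.194). Bbs1, Bbs2, Bbs4, Bbs5, Bbs7 and Bbs9 encode subunits of the coat itself, while Bbs10 and Bbs12 encode chaperonin-like proteins that assemble it.

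Bbs12 was at 4.73, 6.0, 5.98 and 5.14 at 110 days, 5.31, 5.72, 5.09 and 5.50 at 220 days, and 6.15, 6.81, 7.07 and 6.55 with eNpHR-EYFP. Its lowest eNpHR-EYFP array stood just above the highest EGFP array, and the log2 difference was 1.21 ± 0.25 (SE; adjusted p = 0.00405), or 0.74 with the cone covariate (adjusted p = 0.0597). Bbs5 was at 3.81, 4.31, 4.32 and 4.04, then 4.36, 4.76, 4.82 and 4.54, then 5.0, 5.70, 5.07 and 5.50. Again the constructs did not overlap (0.95 ± 0.16, SE; adjusted p = 0.000955).

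Bbs1 was at 2.94, 2.89, 2.87 and 3.0 at 110 days, 2.93, 2.93, 2.94 and 2.85 at 220 days, and 2.66, 2.54, 2.41 and 2.63 with eNpHR-EYFP, with no overlap. It fell by 0.36 on the log2 scale (SE 0.07, adjusted p = 0.00285) on a dim probe. Bbs7 was at 3.69, 3.78, 3.67 and 3.49, then 4.03, 4.12, 3.86 and 3.95, then 3.20, 3.31, 3.69 and 3.23. Replicate 3 with eNpHR-EYFP overlapped the younger EGFP arrays, and it fell by 0.46 overall (SE 0.10, adjusted p = 0.00604), by 0.63 against 220 days (adjusted p = 0.00339) and by 0.30 against 110 days, where it did not pass (0.097). The remaining log2 differences were -0.20 for Bbs2, -0.09 for Bbs4, 0.04 for Bbs9 and -0.15 for Bbs10.

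In the ARL3 cycle, 3 of 4 genes were higher and 1 was lower, with a median log2 difference of 0.98 that was 0.55 after quantile normalization and 0.45 with the cone covariate. Unc119, a carrier of myristoylated proteins such as the transducin alpha subunit, was at 9.65, 10.35, 10.20 and 9.45 at 110 days, 9.04, 9.32, 9.76 and 10 at 220 days, and 10.49, 10.20, 10.81 and 10.79 with eNpHR-EYFP. The groups overlapped at replicates 2 and 3 of the younger EGFP arrays. The log2 difference of 0.85 ± 0.22 (SE; adjusted p = 0.0125) was 0.45 after quantile normalization (adjusted p = 0.135) and 0.37 with the cone covariate (0.166).

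Arl3, the GTPase that unloads these carriers, rose by 1.11 ± 0.23 (SE; adjusted p = 0.00433) and passed at 0.65 after quantile normalization (adjusted p = 0.0401) and at 0.55 with the cone covariate (0.0298), but not with both together (0.30, adjusted p = 0.162). Pde6d, the carrier of prenylated proteins such as cone phosphodiesterase, rose by 1.22 ± 0.28 (adjusted p = 0.00669) and by 0.53 with the cone covariate (0.0369), but was at 0.70 with an adjusted p of 0.066 after quantile normalization. Both had an EGFP array, replicate 3 at 110 days, within the range of the eNpHR-EYFP arrays. Rp2, which switches ARL3 off, fell by 0.29 (SE 0.09, adjusted p = 0.0254); the call was lost without eNpHR-EYFP replicate 1 (adjusted p = 0.0683) or 3 (0.0929) and, at a log2 difference of -0.31, with the cone covariate (0.0811).

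**Figure D3:**
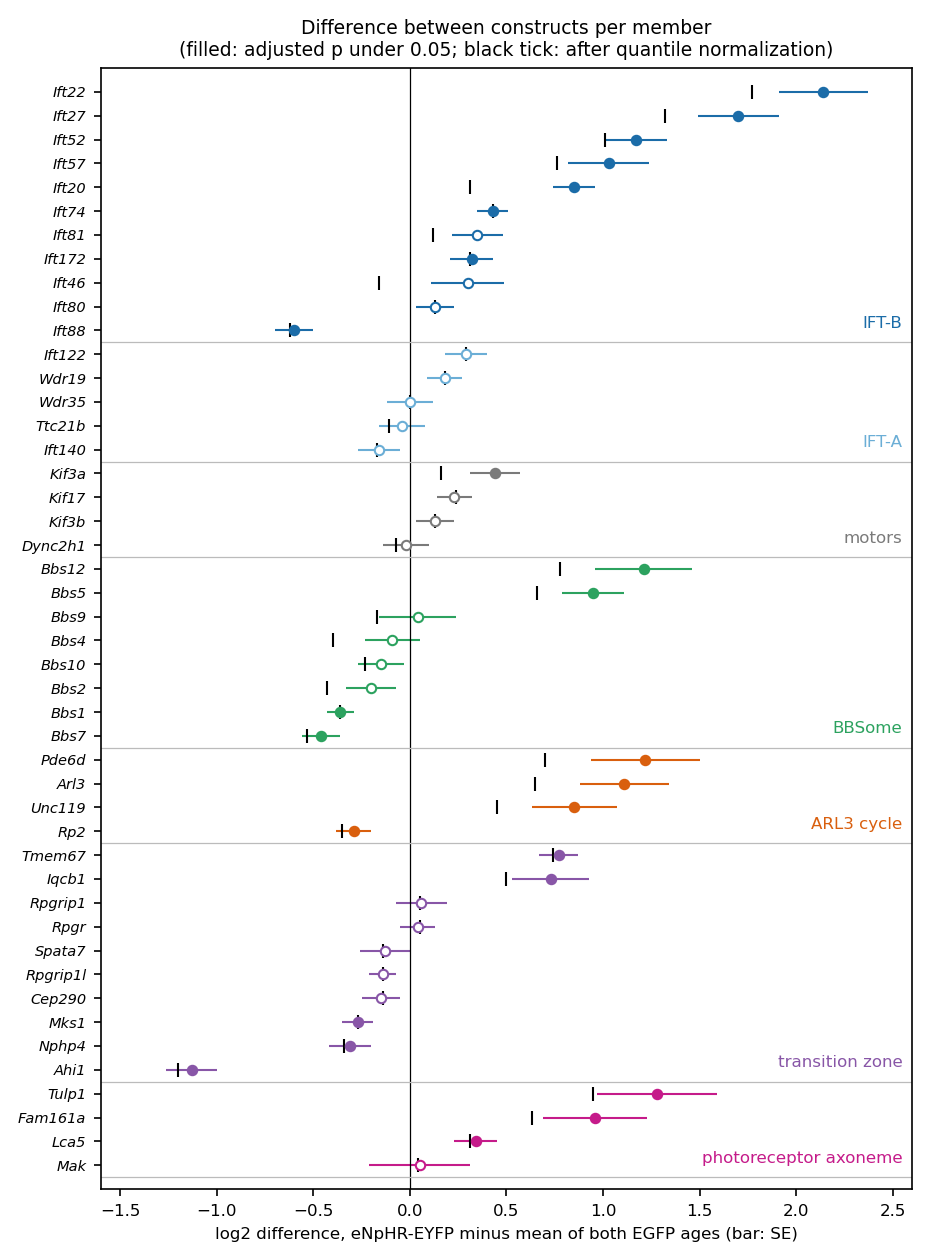
Log2 difference between eNpHR-EYFP cones and the averaged EGFP ages for each gene (circles, filled where the adjusted p is under 0.05), with its SE (bars) and the value after quantile normalization (black ticks). IFT-B, ARL3 cycle and axoneme genes lie mostly to the right of 0, and BBSome and transition zone genes lie on both sides.

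The transition zone held both the steepest fall among the 46 genes and rises beside it. Of 10 genes, Tmem67 and Iqcb1 were higher, Ahi1, Nphp4 and Mks1 lower, and 5 did not pass, with a median log2 difference of -0.14 with and without quantile normalization. Ahi1, a scaffold of this zone that is mutated in Joubert syndrome, was at 4.14, 4.38, 4.36 and 3.73 at 110 days, 4.19, 4.36, 4.70 and 4.20 at 220 days, and 3.02, 3.12, 3.17 and 3.22 with eNpHR-EYFP. All eNpHR-EYFP arrays were below all EGFP arrays, and the level fell by 1.13 on the log2 scale (SE 0.13, adjusted p = 0.000129), a 2.18-fold lower level. It fell by 1.20 after quantile normalization and by 1.35 with the cone covariate.

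Tmem67, the membrane receptor meckelin, moved up from 2.23, 2.66, 2.58 and 2.29 at 110 days and 2.68, 2.58, 2.49 and 2.56 at 220 days to 3.20, 3.22, 3.49 and 3.20 with eNpHR-EYFP. There was no overlap (0.77 ± 0.10, SE; adjusted p = 0.000224). Iqcb1, a partner of Cep290, was at 3.96, 4.18, 3.96 and 4.06, then 4.51, 3.77, 3.90 and 3.89, then 5.29, 4.95, 4.70 and 4.10. Replicate 4 with eNpHR-EYFP lay among the EGFP arrays, and the log2 difference of 0.73 ± 0.20 (SE; adjusted p = 0.0172) lost its call after quantile normalization (0.50, adjusted p = 0.0641) and without eNpHR-EYFP replicate 1 (0.56, 0.0609) or 2 (0.67, 0.055).

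Nphp4, a nephrocystin of the zone, was at 3.39, 3.36, 3.35 and 3.25, then 3.26, 3.34, 3.77 and 3.22, then 2.98, 3.19, 2.93 and 3.12. It did not overlap between the constructs, but its fall of 0.31 (SE 0.11, adjusted p = 0.0445) kept its call in 5 of the 12 fits that left out 1 array and had an adjusted p of 0.122 with the cone covariate (log2 difference -0.34); the lost calls were those without EGFP replicates 1, 2 and 3 at 110 days, EGFP replicate 2 at 220 days and eNpHR-EYFP replicates 1, 3 and 4 (adjusted p 0.0594 to 0.13). Mks1 fell by 0.27 (SE 0.08, adjusted p = 0.0223), a call lost without eNpHR-EYFP replicate 2 (0.063) or 3 (0.0721). That call was lost too with the cone covariate (-0.30, adjusted p = 0.0709) and without the 3 EGFP arrays low in cone markers (-0.28, 0.0666). Log2 differences of the retinal disease genes Cep290, Rpgr, Rpgrip1 and Spata7 were -0.15, 0.04, 0.06 and -0.13, and that of Rpgrip1l was -0.14; none passed. With the cone covariate Cep290 was at -0.34 (adjusted p = 0.0385).

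Of the 4 axoneme genes, Tulp1, Fam161a and Lca5 were higher and Mak was not called (0.05 ± 0.26, SE; adjusted p = 0.912). Tulp1, a photoreceptor protein needed for opsin transport, was at 4.25, 4.98, 5.44 and 4.26 at 110 days, 3.66, 4.69, 4.79 and 4.74 at 220 days, and 5.43, 5.31, 6.37 and 6.42 with eNpHR-EYFP. Replicate 3 at 110 days reached the lower eNpHR-EYFP arrays, and replicate 1 at 220 days lay far below the rest. The log2 difference of 1.28 ± 0.31 (SE; adjusted p = 0.0102) was 0.95 after quantile normalization (adjusted p = 0.0503) and 0.51 with the cone covariate (0.0942). Fam161a, a microtubule-binding protein of the connecting cilium, rose by 0.96 ± 0.27 (adjusted p = 0.0191), with adjusted p of 0.121 after quantile normalization, 0.247 with the cone covariate, and 0.0624 and 0.0609 without eNpHR-EYFP replicate 3 or 4. Lca5, which encodes lebercilin, rose by 0.34 ± 0.11 (adjusted p = 0.0416) and kept its call in 4 of the 12 fits without 1 array; the calls lost were those without EGFP replicates 1 and 4 at 110 days, EGFP replicates 1, 3 and 4 at 220 days and eNpHR-EYFP replicates 1, 2 and 3 (adjusted p 0.0538 to 0.12). Under quantile normalization none of these 4 genes passed.

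Set side by side, the 16 IFT genes of both complexes had 7 rises, 1 fall and a median log2 difference of 0.31 (43.8% higher and 6.25% lower). The 8 BBSome genes had 2 rises, 2 falls and a median of -0.12 (25% each), and the 10 transition zone genes 2 rises, 3 falls and a median of -0.14 (20% and 30%). IFT-B alone had 63.6% higher and 9.09% lower. In the groups of 4 genes, where 1 gene is 25%, the shares higher and lower were 75% and 25% for the ARL3 cycle. They were 75% and 0% for the axoneme and 25% and 0% for the motors. Of all genes 23.0% were higher and 10.1% lower, so the shares of motor, BBSome and transition zone genes that rose were near that of all genes. After quantile normalization the median of the IFT genes was 0.24, that of the BBSome -0.29 and that of the transition zone -0.14. Their shares higher were then 43.8%, 25% and 10%, and lower 6.25%, 50% and 30%, against 16.1% and 12.4% of all genes. Differences between the groups of genes were not tested. Of the 25 calls, 9 held in every setting that was run on the gene: Ift22, Ift27, Ift52, Ift74 and Ift88 of IFT-B, Bbs1 and Bbs7 of the BBSome, and Ahi1 and Tmem67. A further 4 (Ift20, Ift57, Bbs5 and Arl3) held in all settings but 1 or both of the 2 that combine quantile normalization with the cone covariate or with leaving out the 3 EGFP arrays. With quantile normalization and the covariate their adjusted p were 0.0645, 0.0965, 0.0733 and 0.162, and without the 3 arrays those of Bbs5 and Arl3 were 0.0681 and 0.165. No axoneme or motor gene was among these 13. The mean level of 27 of the 46 genes was within 1 log2 unit of the median probe or below it, and 11 of those were called, against 14 of the 19 brighter genes. No background value was used here, so whether those dim probes stood above background is unknown.

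Against each EGFP age alone, 15 ciliary genes were higher and 5 lower at 110 days (19.9% and 8.11% of all genes), and 16 were higher and 4 lower at 220 days (17.8% and 7.40% of all genes). The same direction was called against both ages for 16 genes, and the matching share of all genes was not computed. These comparisons share the eNpHR-EYFP arrays, so the count cannot be read as a result about ciliary genes.

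Whether ciliary genes changed with age was asked within the EGFP cones. No ciliary gene passed between 110 and 220 days in limma (adjusted p 0.581 to 0.995), and neither did any other gene (0 of 19902; 6.14% had an unadjusted p under 0.05). Log2 differences, 220 minus 110 days, ran from -0.38 to 0.62 with a median of 0.05 over the 46 genes. At an unadjusted p under 0.05 there were 4 ciliary genes, all at higher levels at 220 days: Kif3a (0.62 ± 0.16, SE), Ift20 (0.45 ± 0.12), Bbs7 (0.34 ± 0.12) and Bbs5 (0.50 ± 0.18). In each of these 4 genes all 4 older arrays lay above all 4 younger ones, which was so for 2.32% of all genes; no ciliary gene had all older arrays below all younger ones, against 1.55% of all genes.

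The EGFP arrays ranged in cone marker level from 4.72 to 7.59. The slope of each gene on the cone marker mean was fitted within the 8 EGFP arrays with age as a term, in limma. Of all genes 44 of 19902 (0.221%) passed the adjusted threshold. No ciliary gene did (lowest adjusted p 0.125, for Pde6d), which at so low a share is not a result about ciliary genes. An unadjusted p under 0.05 was found for 13 of 46 (28.3%), against 8.63% of all genes. Those 13 were all 4 axoneme genes, 3 of 4 in the ARL3 cycle, 4 of 8 in the BBSome, 1 of 11 in IFT-B, 1 of 10 in the transition zone and none in IFT-A or the motors. The slopes per log2 unit of cone marker level were 0.48 ± 0.08 (SE) for Pde6d, 0.47 ± 0.09 for Tulp1, 0.39 ± 0.09 for Bbs12, 0.37 ± 0.08 for Fam161a and 0.33 ± 0.07 for Arl3. In IFT-B they were 0.33 ± 0.09 for Ift57, 0.22 ± 0.12 for Ift22, 0.13 ± 0.14 for Ift27, 0.05 ± 0.07 for Ift20 and -0.07 ± 0.05 for Ift52. Slopes were not compared between genes or groups by a test. With the cone marker mean as covariate in the comparison of constructs, the median log2 difference of the axoneme genes went from 0.65 to 0.25 and that of the ARL3 genes from 0.98 to 0.45, while that of IFT-B went from 0.43 to 0.47. Within IFT-B, Ift57 went from 1.03 to 0.58 and Ift22 from 2.14 to 1.73.

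**Figure D4:**
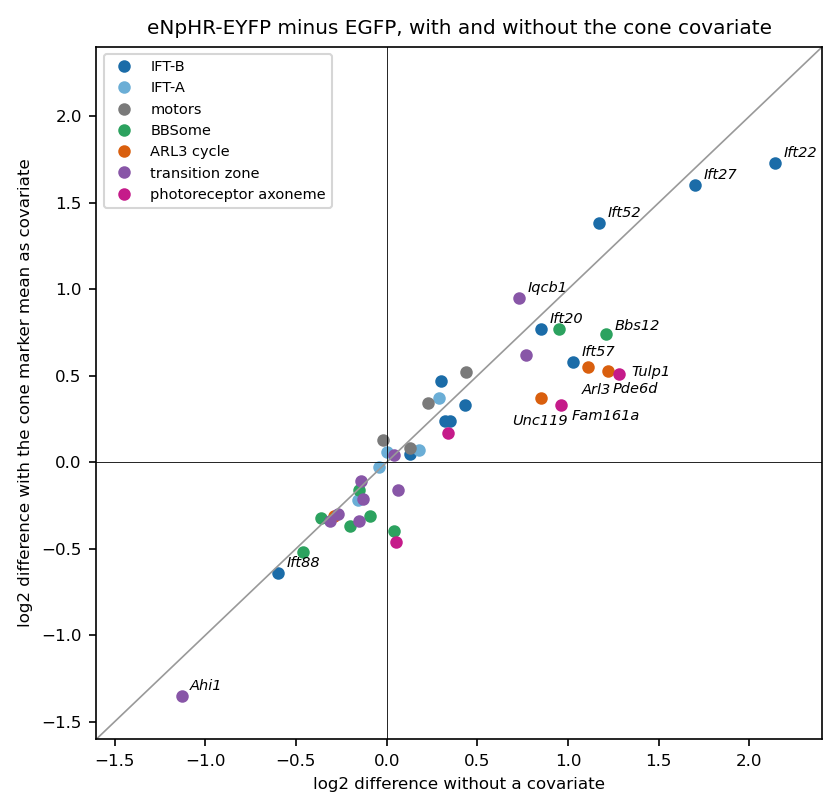
Log2 difference of each ciliary gene between eNpHR-EYFP and EGFP cones without a covariate (horizontal) and with the cone marker mean as covariate (vertical); the grey line marks equal values and colours mark the role. Tulp1, Fam161a, Pde6d, Arl3 and Unc119 lie well below the line, and Ift27, Ift20 and Ift88 lie near it.

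Other genes of the cilium, from a list of 65 of which 60 were measured, gave 21 higher (35.0%), 7 lower (11.7%) and a median log2 difference of 0.16, against 23.0% and 10.1% of all genes and a median of 0.07. The share that fell was thus near that of all genes. After quantile normalization 15 were higher and 7 lower (25% and 11.7%), against 16.1% and 12.4% of all genes. The membrane trafficking GTPases Rab8a (1.66 ± 0.20, SE; adjusted p = 0.000136) and Rab11a (1.02 ± 0.11; adjusted p = 5.9e-05) rose, as did the transition zone gene Tmem17 (1.17 ± 0.15; adjusted p = 0.000234). Topors, a ligase found at the basal body, fell by 0.81 (SE 0.16, adjusted p = 0.00257), and Wdr60, a dynein-2 subunit, fell by 0.62 (SE 0.19, adjusted p = 0.0343). Ttc30a1 fell by 0.71 (SE 0.18, adjusted p = 0.0119) and Ttc30b rose by 0.66 (SE 0.15, adjusted p = 0.00568, but 0.465 after quantile normalization); they are near-identical paralogs, so their probes may share signal. Rfx3, a transcription factor of ciliary genes, fell by 0.29 (SE 0.08, adjusted p = 0.0139), and with the cone covariate the values were -0.30 and 0.0586. The other RFX genes on the list did not pass. Their log2 differences were 0.09 for Rfx1, -0.21 for Rfx2, 0.11 for Rfx4, -0.23 for Rfx5 and 0.17 for Rfx7.

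Promoters of ciliary genes often hold an X-box, the site bound by RFX factors. RefSeq promoter windows of GRCm38.p6, from 250 bases before to 50 after the transcript start, were at hand for 44 of the 48 genes (54 windows); Ift80, Ift81, Ift122 and Tmem67 had none. The X-box was searched as the arms GTTNCC and GGNAAC with 2 bases between them, a motif that reads the same on both strands. It was found in 3 of the 54 windows (5.56%), against 148 of all 32851 (0.451%). The 3 genes were Bbs7, Ahi1 and Mks1, which are among the 7 that fell, and they are shown because the same letters recur in them. In the lines that follow the match is in capitals with 8 bases on each side, on the gene's strand.
Bbs7: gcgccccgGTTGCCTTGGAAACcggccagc
Ahi1: tagtctgaGTTACCTAGGCAACagcggcag
Mks1: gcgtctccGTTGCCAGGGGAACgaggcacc
The Bbs7 sequence is chr3:36613489-36613518 on the minus strand, with the match beginning at position -121 from the transcript start. The Ahi1 sequence is chr10:20952560-20952589 on the plus strand, with the match at position 21, and the Mks1 sequence is chr11:87853183-87853212 on the plus strand, with the match at position -24. The single arm GTTGCC, searched on both strands, was in 19 of the 54 windows (35.2%), in 18 genes, against 12.5% of all windows; in Bbs7, Ahi1 and Mks1 it overlaps the X-box. It lay in windows of genes that rose (Ift27, Ift57, Ift172, Kif3a, Pde6d, Bbs5, Lca5) and, besides those 3, of genes that fell (Ift88, Bbs1, Nphp4). The rest were genes that did not pass (Ift140, Wdr35, Dync2h1, Kif17) and Arl13b, which was not analysed. The letters CTAATCC, bound by the photoreceptor factor CRX and searched on both strands, were in 1 window (1.85%), that of Rpgrip1, against 2.05% of all windows. A match describes the letters of the window and does not show that a factor binds there.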

How the data were processed

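Each of 12 samples was hybridised to 1 Affymetrix mouse array, and the deposited values are linear intensities, 1 for each probe on each array, made with RMA and affy per the submitters' processing notes (no version or genome build of the array was given in the sources used here). Log2 was taken of the authors' intensities without a pseudocount. Per the labels' protocols, 8 ug of total RNA were labelled, although an array came from 300 or 500 sorted cells.

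The 8 EGFP columns hold 34729 values and the 4 eNpHR-EYFP columns 34760, and from data row 13588 the EGFP values stand beside wrong probes. They were realigned to the eNpHR-EYFP profile with a forward-backward algorithm (t distribution with 3 degrees of freedom, scale 0.25, loss probability 0.001, posterior of at least 0.999): 21031 values (60.6%) were moved, 114 were left out and 34615 probes were tested. Across probes, arrays of the 2 constructs had a median correlation of 0.421 as deposited, 0.944 after realignment and 0.934 over the rows in place; probes are not independent replicates. Of the 46 genes, 12 lie on rows in place and 34 on moved rows. A realignment that uses the likeness of the arrays can favour likeness between the constructs.

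Probes with 1 gene in the platform annotation (21640; 1321 name several and 11799 none) were used, 21553 of which matched RefSeq, and a gene took its brightest probe. The comparisons used limma 3.58.1 under R 4.3.3 (1 model of 3 groups, no covariate, no filter), with adjustment over all probes at 0.05. Genes given on all arrays are, in each role group, up to 3 with the largest log2 difference among those called without overlap between constructs, and the brightest; where none was called, the one with the smallest p; and the 3 with the smallest p for age. Ift88 was given so after its values were seen. The members, lists and tests were chosen with earlier results of these data known. The slope on cone markers and 2 combined settings were added after values were seen. Alternatives were quantile normalization, median centring, a filter at the median level, a trended and robust prior, array weights and a replicate block. Others were the mean of a gene's probes, the cone covariate, and leaving out each array or the 3 EGFP arrays lowest in Arr3. The fit was also run on rows in place only. A further fit pooled both EGFP ages for the comparison of constructs and used the EGFP arrays alone for age. The alignment and the fits were tested on simulated data. The number of arrays limits the precision.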

Additional observations from a re-analysis of the deposited data

Results flagged for a closer look

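Among 51 groups of 4 arrays (17 genes in 3 groups), 4 held an array that stood apart by Dixon's 95% limit, which chance does in about 1 of 20 groups. Ift52 had its lowest eNpHR-EYFP value, 3.70, on replicate 4. Ift122 had its highest eNpHR-EYFP value, 2.61, on replicate 3, and Tmem67 its highest, 3.49, on the same array. Tulp1 had its lowest value at 220 days in EGFP cones, 3.66, on replicate 1, the array of that group lowest in cone markers.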

How the results depend on the processing

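The 18 ciliary genes higher with eNpHR-EYFP were 11 after quantile normalization, 11 with the cone covariate, 9 with quantile normalization after leaving out the 3 EGFP arrays that were lowest in Arr3, and 6 with quantile normalization and the covariate; on the rows that stood in place, which hold 12 of the genes, 5 were higher. The 7 lower genes were 9 after quantile normalization and 5 with the cone covariate. They were 4 without those 3 arrays and 2 on the rows in place. With quantile normalization and the covariate falls outnumbered rises. Called lower there were Ift88, Bbs1, Bbs2, Bbs4, Bbs7, Bbs9, Rp2, Ahi1 and Mks1. With quantile normalization and the 3 arrays left out the same genes fell, except Bbs9 and Mks1. Shares of all genes are not given for these combined settings. Leaving out 1 array at a time gave 14 to 18 higher and 4 to 7 lower (4 without eNpHR-EYFP replicate 3), and a median log2 difference of 0.13 to 0.19. The median of 0.15 was 0.32 for the 34 genes above the median level and 0.02 on the rows in place. Of the other cilium genes, 21 higher and 7 lower became 5 and 0 on the rows in place, which hold 15 of them, and 4 were lower with the covariate; leaving out 1 array gave 20 to 22 and 5 to 8. The rows in place hold fewer genes, which lowers the counts there. Every ciliary gene on such a row that was called in the main fit kept its call there. These were Ift20, Kif3a, Pde6d, Unc119 and Fam161a, higher, and Ahi1 and Mks1, lower. However, Wdr60 lies on such a row and was lower in the main fit (limma adjusted p = 0.0343), but not in the fit on those rows. The cause of the other changes in the counts was not tested. With the replicate number as a block ciliary genes gave 18 rises and 6 falls (median 0.15), and 21 and 7 of the other cilium genes; same-numbered arrays deviated together in 2 of 12 pairs (correlation over 0.1; range -0.0387 to 0.143), so the numbers give no pairing. No setting reversed a named gene that was called, or called a ciliary gene between the EGFP ages. Ttc21b, which was not called, ran from -0.10 to 0.01 when 1 array was left out. No depth is known for arrays, and the dim probes limit what can be seen.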
